A study of Homo sapiens with 8 samples.

Results

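The genes of cholesterol synthesis, uptake and export were examined in human prostate cancer cells. The set held 31 genes, chosen by name for their place in the pathway and matched to the Ensembl identifiers of the table, out of 57905 genes measured by RNA sequencing. It comprised 8 genes of the mevalonate and isoprenoid steps, 11 of the squalene and sterol ring steps, 4 that control the transcription factor SREBP2, 6 of uptake, transport and storage, and 2 exporters. Cells build cholesterol from acetyl-CoA through mevalonate, the isoprenoid farnesyl diphosphate, squalene and lanosterol. When membranes of the endoplasmic reticulum run low in sterol, the escort protein SCAP carries the SREBP2 precursor to the Golgi, where it is cut to release the factor that switches on the synthesis genes, and the INSIG proteins hold SCAP back when sterol is plentiful. Cholesterol is the precursor of all androgens, and prostate cancer cells can make steroids from it.

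EnzaR cells, an enzalutamide-resistant prostate cancer line kept in medium with 10 uM of this antiandrogen, were given 40 nM of siRNA against YAP1 (siYAP1) or of control siRNA (siNC) for 48 h, with 2 libraries each. YAP1 is the transcriptional co-activator that the Hippo pathway restrains. LNCaP cells, an androgen-sensitive line sensitive to enzalutamide and kept without it, received for 48 h extracellular vesicles (EVs) from EnzaR cells depleted of YAP1 (EV-siYAP1), depleted of CII (EV-siCII) or given control siRNA (EV-siNC), or vehicle (control), with 1 library each. Both lines grew in RPMI1640 medium with 10% serum, and the labels do not say how the EnzaR line was derived or whether it is 1 clone. Nothing in the labels tells whether a group's replicates came from different cultures, and p-values therefore cover the spread among these libraries alone, which may be technical.

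Total counts were 16682669 to 18248939 per library, so that 3 counts correspond to 0.164 to 0.18 CPM (counts per 1000000 counts of the library). YAP1 was at 5.78 and 7.06 CPM in the siYAP1 libraries and at 57.3 and 47.6 CPM in the siNC libraries (log2 fold change -3.02, edgeR adjusted p = 2.07e-10). Of the luminal prostate markers, KLK3 stood at 1173 to 1221 CPM in the EnzaR libraries and at 43.1 to 47.9 CPM in the LNCaP libraries, and the 7 markers together at 3457 to 3533 CPM in the EnzaR and 2453 to 2715 CPM in the LNCaP libraries. The basal keratin gene KRT5 was at 0 in every library. The fibroblast list was at 17.6 to 21.9 CPM in EnzaR and 98.2 to 115 CPM in LNCaP libraries, nearly all of it COL1A1, and the macrophage list reached at most 1.71 CPM. Mitochondrial genes took 6.65% to 6.83% of the counts in EnzaR libraries, 5.11% to 5.37% in the EV libraries and 4.76% in the LNCaP control. The markers and the mitochondrial share move with the line, and their part in the differences between the lines described here was not tested.

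The promoters of 27 of the 31 genes were in the RefSeq table (GRCh38.p14) as windows of 300 bases, 250 before and 50 after the start site. The CCAAT box, the site of the factor NF-Y that assists SREBP2, was searched as CCAAT on both strands and was found in 19 of the 27 windows (70.4%), against 35.7% of 27305 promoters. It was also found in 36.4% of the promoters of genes tested between the lines. The GC box, searched as GGGCGG on both strands, was in 25 of the 27 windows (92.6%), against 44.6% of all promoters and 68.9% of those of tested genes. The core of the sterol regulatory element, searched as CACNCCAC on both strands, was in 4 of the 27 (14.8%), those of SC5D, SREBF2, INSIG1 and ABCA1. It was in 5.74% of all promoters and 5.8% of those of tested genes. Of the 16 synthesis genes with a window, only 1 held it, SC5D, after the start site. The motif of the TEAD factors, through which YAP1 acts, searched as GGAATG on both strands, was in 5 of the 27 (18.5%). It was in 14% of all promoters and 11% of those of tested genes. These matches are descriptions of the letters in the windows, and binding was not measured here.

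Shown are the 250 bases before the start site, 5′ to 3′ on the strand of the gene, for 3 genes of synthesis that were higher in EnzaR than in LNCaP cells (MVK, FDPS and EBP), for 1 that was lower (TM7SF2), and for SREBF2, the gene of SREBP2, and INSIG1, which hold a sterol regulatory element core. Capitals mark the CCAAT boxes and the sterol regulatory element cores on either strand, and the windows of MVK, FDPS, EBP, TM7SF2, SREBF2 and INSIG1 hold 5, 3, 3, 1, 1 and 1 CCAAT boxes. The genes shown do not stand for their direction. Of the other synthesis genes called higher, IDI1, PMVK, GGPS1 and CYP51A1 hold 0 CCAAT boxes, and NSDHL, MSMO1, HMGCS1 and SC5D hold 5, 4, 2 and 1. DHCR7, the other synthesis gene called lower, holds 2.
MVK (chr12:109573544-109573793, plus strand): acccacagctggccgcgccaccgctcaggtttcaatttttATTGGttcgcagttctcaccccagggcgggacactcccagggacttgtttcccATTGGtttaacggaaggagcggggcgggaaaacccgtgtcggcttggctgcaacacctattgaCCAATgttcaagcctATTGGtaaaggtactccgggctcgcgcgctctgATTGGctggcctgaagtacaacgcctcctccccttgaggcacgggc
FDPS (chr1:155308616-155308865, plus strand): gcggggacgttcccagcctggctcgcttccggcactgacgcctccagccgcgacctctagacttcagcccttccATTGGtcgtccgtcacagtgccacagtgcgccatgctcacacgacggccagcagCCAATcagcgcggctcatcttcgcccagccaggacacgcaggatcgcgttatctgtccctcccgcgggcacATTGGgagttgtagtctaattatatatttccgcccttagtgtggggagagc
EBP (chrX:48521558-48521807, plus strand): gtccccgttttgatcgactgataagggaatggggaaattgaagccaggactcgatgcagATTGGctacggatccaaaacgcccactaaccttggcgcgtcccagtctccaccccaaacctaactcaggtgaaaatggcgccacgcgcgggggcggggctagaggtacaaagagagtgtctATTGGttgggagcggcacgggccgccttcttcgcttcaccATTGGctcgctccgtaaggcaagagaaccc
TM7SF2 (chr11:65111622-65111871, plus strand): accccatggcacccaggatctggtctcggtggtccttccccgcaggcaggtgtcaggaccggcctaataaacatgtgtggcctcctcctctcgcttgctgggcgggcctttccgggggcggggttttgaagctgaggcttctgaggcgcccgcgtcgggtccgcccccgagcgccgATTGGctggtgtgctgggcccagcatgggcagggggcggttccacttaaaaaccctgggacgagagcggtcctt
SREBF2 (chr22:41832855-41833104, plus strand): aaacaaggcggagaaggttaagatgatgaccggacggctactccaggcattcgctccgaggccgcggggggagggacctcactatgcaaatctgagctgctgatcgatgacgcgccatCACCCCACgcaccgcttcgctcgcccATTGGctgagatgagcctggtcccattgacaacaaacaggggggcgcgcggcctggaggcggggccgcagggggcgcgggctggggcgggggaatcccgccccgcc
INSIG1 (chr7:155297628-155297877, plus strand): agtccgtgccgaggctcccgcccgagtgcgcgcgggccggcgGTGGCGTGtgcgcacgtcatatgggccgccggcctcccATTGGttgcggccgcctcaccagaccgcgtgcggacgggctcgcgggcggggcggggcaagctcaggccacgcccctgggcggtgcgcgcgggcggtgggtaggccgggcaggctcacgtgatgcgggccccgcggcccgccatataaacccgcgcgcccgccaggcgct

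Levels between genes can be set beside each other only per length, as FPKM (the deposited values, scaled by the authors to gene length and library total). In the EnzaR siNC libraries the highest were PMVK, phosphomevalonate kinase, at 99.8 and 109 FPKM, FDFT1, squalene synthase, at 79.0 and 70.5 FPKM, and FDPS, farnesyl diphosphate synthase, at 75.9 and 71.8 FPKM. In the LNCaP control TM7SF2, a sterol C14-reductase, led at 181 FPKM, followed by FDFT1 at 85.8, DHCR7 at 83.8 and SREBF2 at 74.7 FPKM. At the low end ABCA1, the exporter that loads cholesterol onto apolipoprotein A-I, had 0.1 to 0.21 FPKM in EnzaR and 0.36 to 0.48 FPKM in LNCaP libraries. STARD4, a cytosolic sterol carrier, had 0.19 to 0.35 FPKM in EnzaR and 0.94 to 1.59 FPKM in LNCaP libraries. Summed over the 8 mevalonate and isoprenoid genes, EnzaR libraries had 274 to 290 FPKM and LNCaP libraries 137 to 144 FPKM. The sum over the 11 squalene and sterol ring genes was lower in the EnzaR libraries, at 344 to 357 FPKM, than in the LNCaP libraries, at 393 to 457 FPKM. Without TM7SF2, a sum formed after the values were seen, the order of the 2 lines turned round, with 289 to 303 FPKM in EnzaR and 231 to 276 FPKM in LNCaP libraries.

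**Figure D1:**
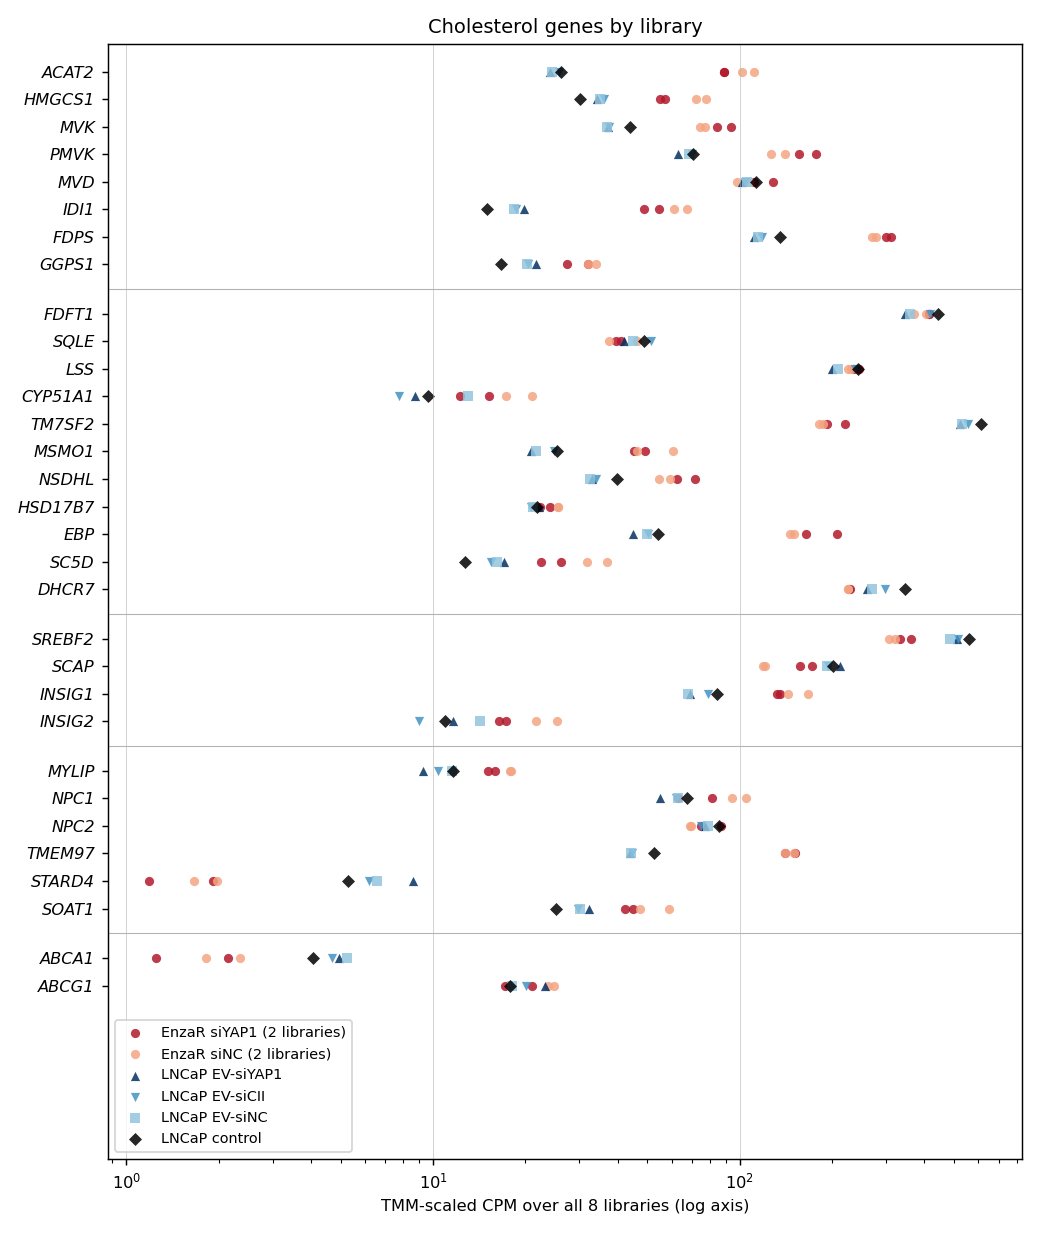
CPM of each gene of the set in the 8 libraries, scaled by TMM (trimmed mean of M values) over all 8, on a log axis, with 1 point per library and lines between the role groups in the order mevalonate, sterol ring, SREBP2 control, uptake and storage, export. EBP, TMEM97 and ACAT2 lie higher in all 4 EnzaR libraries than in the 4 LNCaP libraries, TM7SF2, STARD4 and SREBF2 lie lower, and the lines overlap for 8 genes.

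The clearest differences lay between the lines. EnzaR siNC libraries (2) were set against the LNCaP control (1) in an edgeR fit over all 8 libraries, in which the lone control is assumed to vary like the EnzaR replicates. Line, drug in the medium and siRNA transfection cannot be told apart in this comparison, and neither can more cells with a transcript and more RNA per cell. Of the 31 genes, all tested, 19 were higher and 7 lower in EnzaR siNC (edgeR adjusted p under 0.05), against 29.8% of 17537 genes higher and 28.6% lower, or 58.4% either way. At 2-fold or more, 10 were higher and 2 lower, against 17.4% and 16.8% of all genes, or 34.2% either way. The median log2 fold change of the 31 was 0.62 and that of all genes 0.00.

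Of the mevalonate and isoprenoid genes, 7 of 8 rose in EnzaR cells, against 29.8% of all genes tested. At 2-fold or more, 4 of the 8 were higher, against 17.4% of all genes. IDI1 (ENSG00000067064, chromosome 10, 1085848 to 1095110, hg19), which isomerizes isopentenyl diphosphate, was at 60.9 and 67.3 CPM in EnzaR siNC and at 15.0 CPM in the LNCaP control, a log2 fold change of 2.10 (SE 0.165, edgeR adjusted p = 3.65e-11). ACAT2 (ENSG00000120437, chromosome 6, 160181360 to 160200144), the cytosolic thiolase that joins 2 acetyl-CoA, was at 102 and 111 CPM in EnzaR siNC and at 26.1 CPM in the control (log2 fold change 2.03, SE 0.145, edgeR adjusted p = 6.34e-12). The lowest of the 4 EnzaR libraries was 3.39 times the highest of the 4 LNCaP libraries for ACAT2 and 2.46 times for IDI1, so the lines did not overlap. HMGCS1, the synthase of HMG-CoA, had 77.8 and 72.2 CPM in EnzaR siNC and 30.1 CPM in the control (log2 fold change 1.32). FDPS, the synthase of farnesyl diphosphate, had 279 and 269 CPM in EnzaR siNC and 135 CPM in the control (log2 fold change 1.02). GGPS1, which makes geranylgeranyl diphosphate, PMVK and MVK, mevalonate kinase, had log2 fold changes of 0.99, 0.92 and 0.79. The remaining member, MVD, mevalonate diphosphate decarboxylase, had 97.7 and 107 CPM in EnzaR siNC and 113 CPM in the control and was not called (log2 fold change -0.14, edgeR adjusted p = 0.35). With a correction for GC content and gene length, described below, GGPS1 (0.07) was no longer called and MVD (0.47) was called higher. HMGCS1 (0.40), IDI1 (1.14) and ACAT2 (1.94) then had smaller log2 fold changes, and MVK (1.2), PMVK (1.08) and FDPS (1.19) larger ones. ACAT2 overlaps TCP1 on the other strand, whose counts were 601% of its own and whose log2 fold change was 1.54. MVK overlaps MMAB (135% of its counts, log2 fold change 0.11) and GGPS1 overlaps ARID4B (49.3%, -0.18), and since the strand setting of the counting is not given in the sources used here, reads of such neighbours cannot be told apart.

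The squalene and sterol ring genes were divided, with 5 of 11 higher, 2 lower and 4 not called. Of all genes tested, 29.8% were higher and 28.6% lower. EBP (ENSG00000147155, X chromosome, 48379546 to 48387104), the sterol isomerase, was at 146 and 151 CPM in EnzaR siNC and at 54.1 CPM in the LNCaP control (log2 fold change 1.46, SE 0.144, edgeR adjusted p = 2.61e-09). SC5D, the C5-desaturase that follows it, was at 31.8 and 36.8 CPM in EnzaR siNC and at 12.7 CPM in the control (log2 fold change 1.43). MSMO1, the C4-methyl oxidase, CYP51A1, the lanosterol demethylase, and NSDHL, a C4-decarboxylase, had log2 fold changes of 1.08, 0.99 and 0.51. The 4 genes not called were FDFT1, SQLE (squalene epoxidase), LSS (lanosterol synthase) and HSD17B7, with log2 fold changes of -0.19, -0.22, -0.10 and 0.23, so no gene of the entry steps from farnesyl diphosphate to lanosterol was called. With the correction for GC content and gene length, FDFT1 (-0.33), SQLE (-0.64) and HSD17B7 (-0.63) were called lower and LSS (0.37) higher. MSMO1 (-0.15), CYP51A1 (0.11) and NSDHL (0.21) were then no longer called. HSD17B7 has 2 pseudogene copies with up to 540 counts in all, and its reads are uncertain. DHCR7, the reductase that turns 7-dehydrocholesterol into cholesterol, fell, with 225 CPM in each EnzaR siNC library and 346 CPM in the control (log2 fold change -0.62, edgeR adjusted p = 2.89e-05).

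TM7SF2 fell most among the synthesis genes, while LBR, its partner in the same reaction, rose. TM7SF2 (ENSG00000149809, chromosome 11, 64879317 to 64883856) was at 182 and 187 CPM in EnzaR siNC and at 611 CPM in the LNCaP control, a log2 fold change of -1.73 (SE 0.114, edgeR adjusted p = 1.09e-12). LBR (ENSG00000143815, chromosome 1, 225589204 to 225616627), the lamin B receptor, also carries sterol C14-reductase activity and is not in the set. It was at 113 and 89.1 CPM in EnzaR siNC and at 11.5 CPM in the control (log2 fold change 3.13, edgeR adjusted p = 5.15e-14). Per length, TM7SF2 had 53.6 to 58.7 FPKM in EnzaR and 162 to 181 FPKM in LNCaP libraries, and LBR had 16.8 to 21.7 FPKM in EnzaR and 2.21 to 2.66 FPKM in LNCaP libraries. The ratio of TM7SF2 to LBR, a quantity chosen after the values were seen, was 2.49 to 3.50 in EnzaR and 60.8 to 81.7 in LNCaP libraries. TM7SF2 made up 8.55% to 9.08% of the FPKM sum of the 19 synthesis genes in EnzaR and 29.4% to 30.5% in LNCaP libraries. The sum of TM7SF2 and LBR was 70.5 to 75.6 FPKM in EnzaR and 164 to 183 FPKM in LNCaP libraries, and was thus lower in every EnzaR library than in any LNCaP library. TM7SF2 overlaps VPS51 on the same strand, whose counts were 65.6% of its own and whose log2 fold change was -1.34. A correction that removes a smooth trend of each library's counts with GC content and gene length gave log2 fold changes of -1.21 for TM7SF2 (edgeR adjusted p = 3.39e-12) and 2.12 for LBR (edgeR adjusted p = 8.83e-12).

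**Figure D2:**
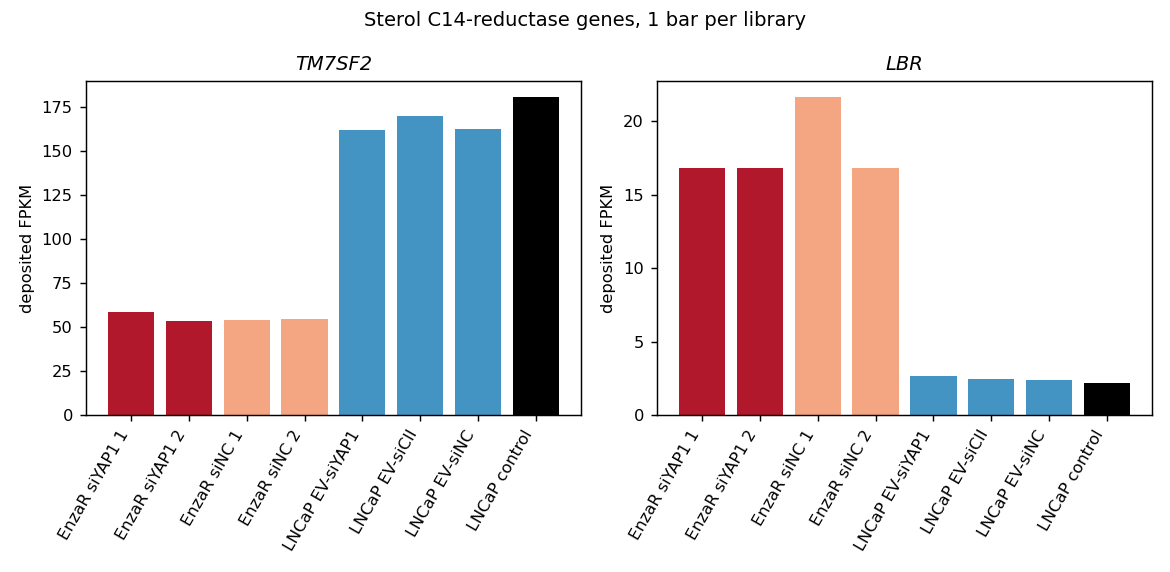
Deposited FPKM of the sterol C14-reductase genes TM7SF2 and LBR, with 1 bar per library and no error bars, on linear axes from 0 that differ between the panels. TM7SF2 is at 53.6 to 58.7 FPKM in EnzaR and 162 to 181 FPKM in LNCaP libraries, and LBR at 16.8 to 21.7 FPKM in EnzaR and 2.21 to 2.66 FPKM in LNCaP libraries.

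Among the genes that control SREBP2, the factor and its escort fell and the retention proteins rose in EnzaR cells, but with the GC and length correction described above only SREBF2 (-0.39) and INSIG1 (0.35) of the 4 were called, SCAP was at -0.14 and INSIG2 turned to -0.15. SREBF2 (ENSG00000198911, chromosome 22, 42229109 to 42303312), which encodes SREBP2, was at 320 and 306 CPM in EnzaR siNC and at 559 CPM in the LNCaP control (log2 fold change -0.84, SE 0.112, edgeR adjusted p = 4.86e-07). SCAP was at 120 and 121 CPM in EnzaR siNC and at 202 CPM in the control (log2 fold change -0.75, edgeR adjusted p = 4.11e-06). INSIG1, itself a target of SREBP2, was at 166 and 143 CPM in EnzaR siNC and at 84.2 CPM in the control (log2 fold change 0.88, edgeR adjusted p = 2.09e-06), and INSIG2 had a log2 fold change of 1.10. SREBF2 and SCAP were lower in all 4 EnzaR libraries than in all 4 LNCaP libraries, and INSIG1 and INSIG2 higher.

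Of the 6 uptake, transport and storage genes, 4 rose and 2 fell, against 29.8% and 28.6% of all genes tested. TMEM97 (ENSG00000109084, chromosome 17, 26646121 to 26655707), which binds the lysosomal transporter NPC1 and lowers its level, was at 150 and 141 CPM in EnzaR siNC and at 52.7 CPM in the LNCaP control (log2 fold change 1.47, edgeR adjusted p = 5.39e-10). SOAT1, which esterifies cholesterol for storage, had 58.8 and 47.3 CPM in EnzaR siNC and 25.3 CPM in the control (log2 fold change 1.07). MYLIP, a ubiquitin ligase that removes lipoprotein receptors, and NPC1, which passes cholesterol out of lysosomes, had log2 fold changes of 0.62 and 0.56. With the GC and length correction MYLIP (0.02) and SOAT1 (0.31) were no longer called. STARD4 fell, at 1.97 and 1.66 CPM in EnzaR siNC and 5.29 CPM in the control (log2 fold change -1.54, edgeR adjusted p = 0.00026), and NPC2, the soluble partner of NPC1, had a log2 fold change of -0.31 (edgeR adjusted p = 0.0419). The exporters went apart, with ABCA1 at 2.35 and 1.82 CPM in EnzaR siNC and 4.05 CPM in the control (log2 fold change -0.95, edgeR adjusted p = 0.0249) and ABCG1 at 24.8 and 23.8 CPM in EnzaR siNC and 17.8 CPM in the control (log2 fold change 0.44, edgeR adjusted p = 0.0367). STARD4, NPC1, NPC2 and TMEM97 overlap other genes on the opposite strand (STARD4-AS1, RMC1, ISCA2 and IFT20), whose counts were 54.1%, 35.6%, 43.4% and 12.9% of theirs. These neighbours had log2 fold changes of -1.11, 0.90, -0.44 and 0.94, each in the direction of the gene it overlaps. Since the strand setting is not given, their reads cannot be told apart.

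**Figure D3:**
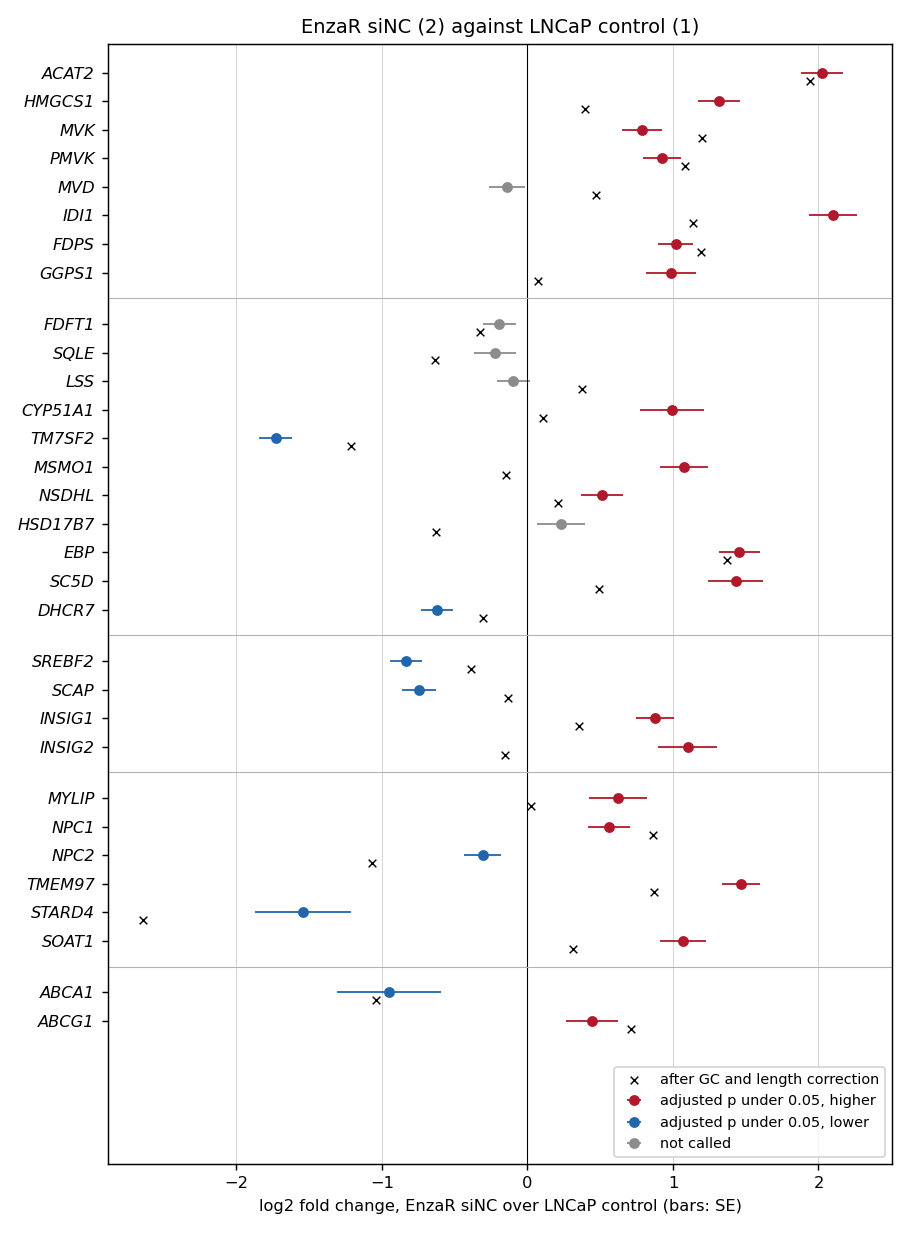
Log2 fold change of each gene, EnzaR siNC (2 libraries) over LNCaP control (1 library), with SE bars from the edgeR fit over all 8 libraries, and crosses for the value after the GC and length correction. In the mevalonate group 7 of 8 genes are called higher, against 29.8% of all genes tested. TM7SF2 and STARD4 lie lowest at -1.73 and -1.54, and the crosses of MVD, LSS, MSMO1, HSD17B7 and INSIG2 lie on the other side of 0.

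Direction was also read over all libraries of each line. All 4 EnzaR libraries lay above all 4 LNCaP libraries for 17 of the 31 genes (54.8%), against 30.6% of the genes tested. They lay below them for 6 (19.4%), against 32.5%, and 8 genes overlapped. Among those that overlapped were CYP51A1, NPC1 and ABCG1, called higher above, and NPC2, called lower. For 16988 genes, which are not independent of each other, the Spearman rho between transcript GC content and the log2 fold change of the lines was -0.40, and the median GC content was 45.8% for the genes of the set called higher and 57.1% for those called lower. With the GC and length correction, 18 of the 26 called genes were called in the same direction, and the median log2 fold change of the set was 0.21. In all, 14 of the 31 were called higher and 9 lower with it, against 4220 and 5432 of the 17537 genes tested. Without the correction these counts were 19 and 7, against 5221 and 5015. SCAP (-0.14), GGPS1 (0.07), CYP51A1 (0.11), NSDHL (0.21), MYLIP (0.02), SOAT1 (0.31), MSMO1 (-0.15) and INSIG2 (-0.15) then passed the test no longer, while MVD (0.47) and LSS were called higher and FDFT1, SQLE and HSD17B7 lower. Of the 18 whose call held, 10 had corrected values nearer to 0, among them HMGCS1 (0.40), IDI1 (1.14), SC5D (0.49), INSIG1 (0.35), TMEM97 (0.87), TM7SF2 (-1.21), SREBF2 (-0.39) and DHCR7 (-0.30), with smaller changes in ACAT2 (1.94) and EBP (1.37). The other 8, MVK (1.2), PMVK (1.08), FDPS (1.19), NPC1 (0.87), ABCG1 (0.71), NPC2 (-1.07), STARD4 (-2.64) and ABCA1 (-1.04), had values further from 0. The calls of ACAT2, HMGCS1, MVK, PMVK, IDI1, FDPS, EBP, SC5D, INSIG1, NPC1 and TMEM97 as higher and of TM7SF2, DHCR7, SREBF2 and STARD4 as lower held in all 7 alternatives run, and those of NPC2 and ABCG1 were lost in 4 of the 7.

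Of 34 other genes of the pathway, 30 were tested. In EnzaR siNC 16 were higher and 8 lower than in the LNCaP control, against 29.8% and 28.6% of all genes. This list was chosen with earlier results of these data known, so these shares are descriptive only. The 4 with the largest differences were all higher. PDSS1, which builds the isoprenoid tail of ubiquinone, was at 19.9 and 23.1 CPM in EnzaR siNC and 1.41 CPM in the control (log2 fold change 3.93, edgeR adjusted p = 1.95e-11). LBR came next, followed by NCEH1, a cholesteryl ester hydrolase, and LRP8, a receptor of lipoproteins, with log2 fold changes of 1.52 and 1.38, and with the GC and length correction NCEH1 was at 0.67 and LRP8 at 1.29.

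Depletion of YAP1 in EnzaR cells was compared next, to ask which transcripts of the pathway change with it. All 31 genes were tested, with 2 higher after siYAP1 and 4 lower, relative to siNC (edgeR adjusted p under 0.05), against 5.83% of 14948 genes higher and 6.22% lower, or 12.1% either way. The share called higher is near the background, and the share called lower rests on 4 genes. At 2-fold, 0 of the 31 passed, against 0.127% of all genes higher and 0.522% lower, or 0.649% either way. The median log2 fold change of the 31 was -0.15 and that of all genes -0.03.

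The genes that rose were SCAP and PMVK. SCAP (ENSG00000114650, chromosome 3, 47455203 to 47518616) was at 166 and 151 CPM in siYAP1 and at 115 and 118 CPM in siNC libraries, a log2 fold change of 0.44 (SE 0.0963, edgeR adjusted p = 0.00823). PMVK (ENSG00000163344, chromosome 1, 154897210 to 154909467) was at 170.3 and 150 CPM in siYAP1 and at 121 and 136 CPM in siNC libraries, just under the threshold (log2 fold change 0.31, SE 0.101, edgeR adjusted p = 0.0492). In neither did the libraries of the 2 groups overlap, which also held for 58.5% of all 14948 genes. SREBF2 had 322 and 348 CPM in siYAP1 and 308 and 297 CPM in siNC libraries and was not called (log2 fold change 0.15, edgeR adjusted p = 0.31).

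The genes that fell were HMGCS1, SC5D, INSIG2 and NPC1, 1 from each group except the exporters. HMGCS1 (ENSG00000112972, chromosome 5, 43289497 to 43313614) was at 53.0 and 54.9 CPM in siYAP1 and at 74.8 and 70.1 CPM in siNC libraries (log2 fold change -0.42, SE 0.105, edgeR adjusted p = 0.0157). SC5D (ENSG00000109929, chromosome 11, 121163162 to 121179403) was at 21.7 and 25.3 CPM in siYAP1 and at 30.6 and 35.7 CPM in siNC libraries (log2 fold change -0.49, SE 0.133, edgeR adjusted p = 0.0231). INSIG2 (ENSG00000125629, chromosome 2, 118846028 to 118868573) was at 16.7 and 15.8 CPM in siYAP1 and at 24.4 and 21.1 CPM in siNC libraries (log2 fold change -0.48, SE 0.143, edgeR adjusted p = 0.0334). In each of these the siYAP1 libraries lay below both siNC libraries, though the groups lay apart, in either direction, for 58.5% of all genes. NPC1 (ENSG00000141458, chromosome 18, 21086148 to 21166862) was at 60.7 and 78.5 CPM in siYAP1 and at 101 and 91.5 CPM in siNC libraries (log2 fold change -0.47, SE 0.117, edgeR adjusted p = 0.0169). Its siYAP1 libraries differed by more than its siNC libraries did, and they did not overlap them.

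The other 25 genes did not pass the test. CYP51A1 was at 11.8 and 14.6 CPM in siYAP1 and at 16.6 and 20.4 CPM in siNC libraries (log2 fold change -0.48, edgeR adjusted p = 0.0586). EBP was at 199.6 and 158 CPM in siYAP1 and at 141 and 146 CPM in siNC libraries (log2 fold change 0.32, edgeR adjusted p = 0.0558). IDI1 and ACAT2, the genes with the largest rise between the lines, had log2 fold changes of -0.32 and -0.27 (edgeR adjusted p = 0.0657 and 0.0816). TMEM97 (log2 fold change 0.00), DHCR7 (0.01), LSS (0.07), SQLE (-0.06) and FDFT1 (0.09) lay nearest to 0, which does not show that they were equal. The libraries of the groups did not overlap for 58.5% of all 14948 genes.

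**Figure D4:**
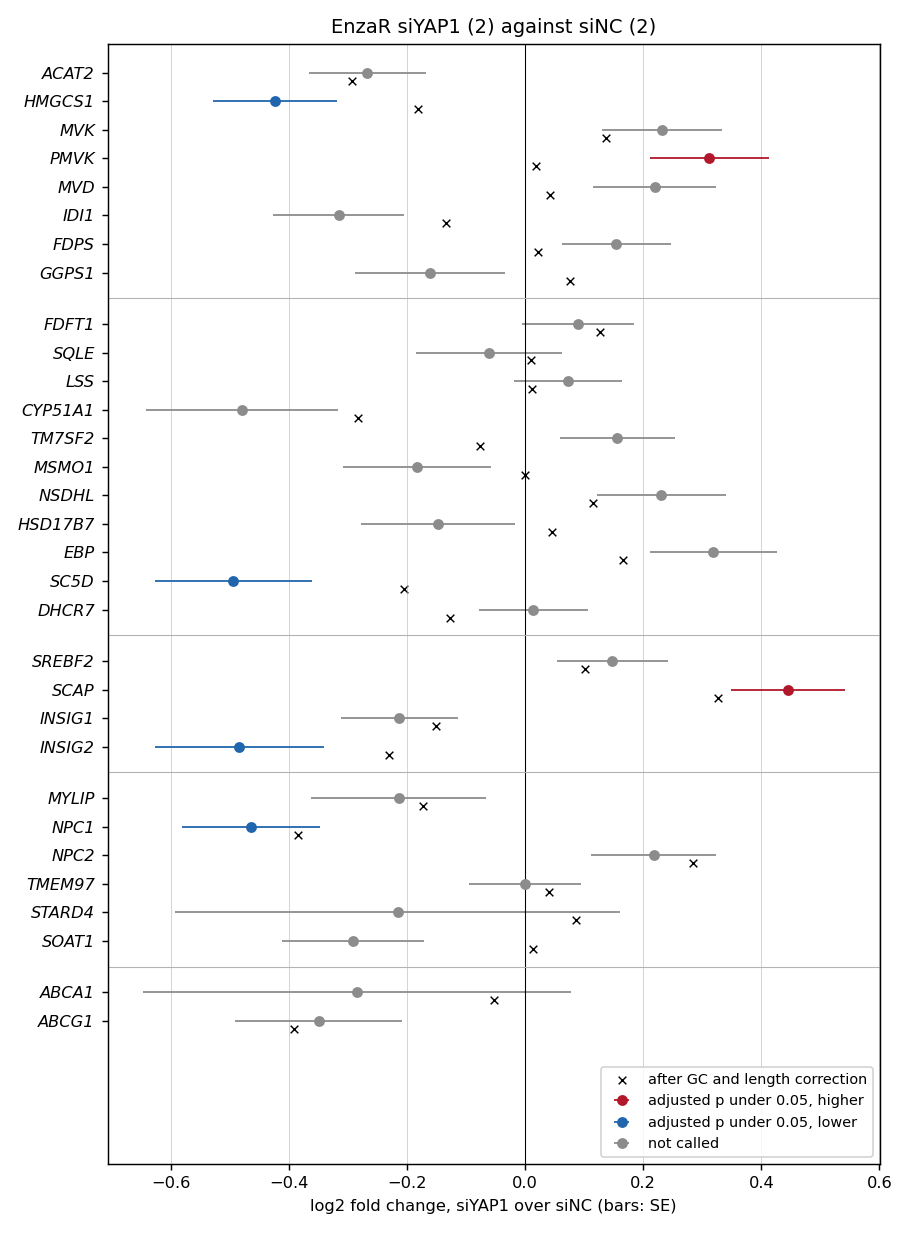
Log2 fold change of each gene, EnzaR siYAP1 (2 libraries) over siNC (2 libraries), with SE bars from the edgeR fit, and crosses for the value after the GC and length correction. SCAP and PMVK are called higher, HMGCS1, SC5D, INSIG2 and NPC1 lower, and most crosses lie nearer to 0 than their points.

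The calls rested on few libraries and moved with GC content. The log2 fold change of 14547 genes and their GC content had a Spearman rho of 0.49, and the median GC content was 60.9% for the 2 genes of the set that rose and 39.4% for the 4 that fell, against 59.6% and 41.4% for all genes called. After the GC and length correction SCAP (log2 fold change 0.33, edgeR adjusted p = 0.028) and NPC1 (-0.39, edgeR adjusted p = 0.0219) were called, PMVK, HMGCS1, SC5D and INSIG2 had values of 0.02, -0.18, -0.21 and -0.23 and were not called, and the median of the set was 0.01. Without siYAP1 replicate 1, 0 of the 31 genes were called by edgeR and 0 by DESeq2, with 7 at an unadjusted edgeR p under 0.05, against 16 with all libraries, and the 6 called genes kept their direction (SCAP 0.37, edgeR adjusted p = 0.169). Without siYAP1 replicate 2, 3 genes were higher and 2 lower, without siNC replicate 1, 1 and 2, and without siNC replicate 2, 1 and 4. PMVK lost its call in 9 of 14 alternatives, INSIG2 in 6, HMGCS1 in 5, SC5D in 4, NPC1 in 2 and SCAP in 1.

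Of the 34 other pathway genes, 29 were tested, with 2 higher and 1 lower, near or below the background of 5.83% and 6.22% of all genes. MBTPS1, the Golgi protease that makes the first cut in SREBP2, was at 81.6 and 83.4 CPM in siYAP1 and at 56.8 and 53.8 CPM in siNC libraries (log2 fold change 0.58, edgeR adjusted p = 0.00255, and 0.65 after the GC and length correction). NR1H2, the sterol-sensing receptor LXR beta, had a log2 fold change of 0.39 (edgeR adjusted p = 0.019) and lost its call under the correction (0.21). ERLIN2, an endoplasmic reticulum protein of sterol-dependent degradation, was at 30.0 and 34.9 CPM in siYAP1 and at 58.3 and 48.8 CPM in siNC libraries (log2 fold change -0.72, edgeR adjusted p = 0.00202, and -0.42 after the correction).

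The LNCaP libraries bear on what vesicles from EnzaR cells do to the pathway in sensitive cells. With 1 library per group there is no test and no replicate check, so values are log2 ratios with 95% exact binomial intervals that cover counting error only. A mean of 5 CPM was reached by 30 of the 31 genes, all but ABCA1, and by 10772 genes in all. In EV-siNC against control, 5 of the 30 were more than 1.2-fold higher and 5 lower, against 20% and 7.92% of the 10772 genes. The median log2 ratio of the 30 was -0.11 and that of all genes -0.02.

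Among the 5 lower in EV-siNC, DHCR7 had 278 CPM in EV-siNC and 360 CPM in control (log2 ratio -0.37, interval -0.43 to -0.32). INSIG1 had 69.8 CPM in EV-siNC and 87.5 CPM in control (log2 ratio -0.33, interval -0.44 to -0.22), and FDFT1 had 372 CPM in EV-siNC and 460 CPM in control (log2 ratio -0.31, interval -0.36 to -0.26). NSDHL and TMEM97 had ratios of -0.31 and -0.27. The 5 higher were CYP51A1 (0.42, interval 0.14 to 0.72), INSIG2 (0.36), SC5D (0.33), STARD4 (0.30, interval -0.10 to 0.71) and IDI1 (0.28), none of them above 20.6 CPM in any LNCaP library. The 3 EV libraries all lay below the control for 18 of the 30 genes (60%), against 36% of all genes, and above it for 7 (23.3%), against 33.7%. The control is thus the highest of the 4 LNCaP libraries for SREBF2 (530 CPM in EV-siYAP1, 533 in EV-siCII, 500.1 in EV-siNC and 580 in control), FDPS, TM7SF2 and INSIG1 among others. Since these 3 comparisons share the 1 control library, they are not separate evidence.

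GC content moved with this comparison too, as did the mitochondrial share, whose part in it was not tested. Over 10618 genes, the Spearman rho between GC content and the log2 ratio of EV-siNC over control was -0.56, and the genes of the set below the control had a median GC content of 52%, against 40.2% for those above. After the GC and length correction DHCR7, INSIG1 and FDFT1 had log2 ratios of -0.27, -0.38 and -0.31, while CYP51A1, INSIG2, SC5D and IDI1 had 0.22, 0.03, 0.01 and 0.09, and STARD4 turned to -0.09. The control then lay below all 3 EV libraries for 4 of the 30 genes and above them for 15.

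The other LNCaP comparisons held fewer differences in the set. In EV-siYAP1 against EV-siNC, 2 of the 30 genes were more than 1.2-fold higher and 3 lower, against 8.39% and 8.13% of all genes. In EV-siCII against EV-siNC, 0 were higher and 2 lower, against 5.44% and 7.55%. For scale, the 2 EnzaR siYAP1 replicates differed by as much for 4 of 29 genes of the set (replicate 2 higher in 3 and lower in 1), against 11% and 8.86% of 10499 genes. The 2 siNC replicates did so for 4 (replicate 2 higher in 1 and lower in 3), against 11.3% and 6.58%. Both comparisons use the EV-siNC library, which is also the vesicle library of the comparison with control, so a deviation of that library enters all 3.

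CYP51A1 and INSIG2 were the genes lower in both. CYP51A1 was at 9.05 CPM in EV-siYAP1, 8.04 in EV-siCII, 13.4 in EV-siNC and 9.99 in control, with log2 ratios over EV-siNC of -0.57 (interval -0.87 to -0.28) in EV-siYAP1 and -0.73 (interval -1.05 to -0.44) in EV-siCII. INSIG2 was at 12.0 CPM in EV-siYAP1, 9.35 in EV-siCII, 14.7 in EV-siNC and 11.4 in control, with log2 ratios of -0.28 and -0.64. In both genes EV-siNC is the highest of the 4 libraries, though with the correction its log2 ratio over control was only 0.03 for INSIG2, and EV-siYAP1 and EV-siCII lie nearer to control than to it. MYLIP was lower in EV-siYAP1 (9.66 CPM, against 11.9 CPM in EV-siNC, log2 ratio -0.30). STARD4 was higher (8.93 CPM in EV-siYAP1 and 6.77 CPM in EV-siNC, log2 ratio 0.39), as was ABCG1, the exporter to high-density lipoprotein (24.1 CPM in EV-siYAP1 and 18.7 CPM in EV-siNC, log2 ratio 0.36, interval 0.15 to 0.57). In EV-siCII, 8 of the 30 genes had an interval above 0 over EV-siNC, against 15.8% of the 10772 genes. They were FDFT1, SQLE, LSS, TM7SF2, MSMO1, DHCR7, SREBF2 and INSIG1, with log2 ratios of 0.07 to 0.23, none past 1.2-fold. Those with an interval below 0 were CYP51A1 and INSIG2, and the share of all genes with such an interval was not counted. GC content moved with this comparison as well, with a Spearman rho of 0.20 over 10618 genes, against -0.05 for EV-siYAP1 over EV-siNC. The mevalonate genes lay between -0.11 and 0.12 in EV-siYAP1 and between -0.01 and 0.09 in EV-siCII.

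**Figure D5:**
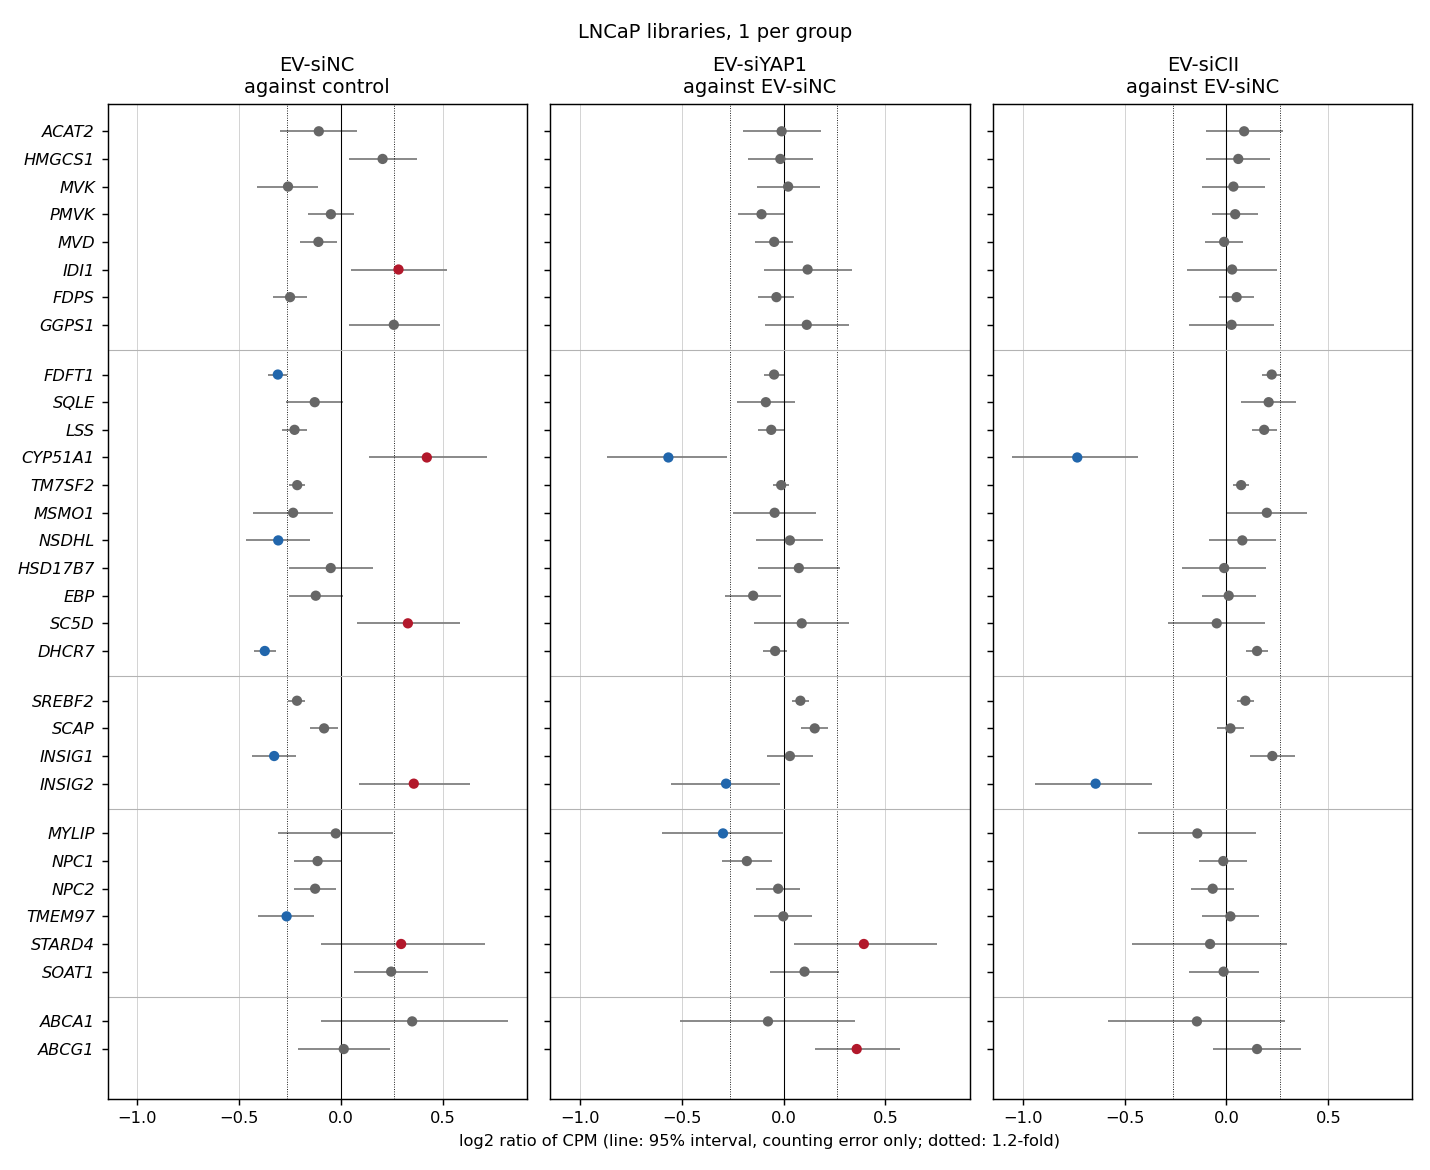
Log2 ratio of CPM for each gene in the 3 LNCaP comparisons, with 1 library per group, lines for 95% exact binomial intervals (counting error only), dotted lines at 1.2-fold, and red and blue points for ratios past it in genes that reached 5 CPM. CYP51A1 and INSIG2 lie right of 0 in EV-siNC against control and left of it in the other panels, at -0.57 and -0.28 in EV-siYAP1 and -0.73 and -0.64 in EV-siCII.

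Among the other pathway genes that reached 5 CPM, 25 in all, the 4 largest ratios per comparison were small as well. EV-siNC against control had MBTPS2 (0.56), which makes the second cut in SREBP2, ACAT1 (0.29), ERLIN2 (0.28) and NUS1 (0.27). EV-siYAP1 against EV-siNC had COQ2 (-0.44), LRP8 (0.42), FDXR (0.39) and MBTPS2 (-0.29). EV-siCII against EV-siNC had NR1H3 (-0.39), COQ2 (-0.37), MBTPS2 (-0.30) and LRP8 (0.28).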

How the data were processed

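RNA was sequenced from 8 libraries of EnzaR and LNCaP cells. Per the submitters' processing notes, the tools named are HTSeq 0.6.1, HISAT2 2.0.1, cutadapt 1.9.1 and DESeq2, and the builds are hg19 and GRCh37. The authors deposited whole-number counts per gene and FPKM values in 1 table of 57905 genes, and neither strand setting nor annotation release is given in the sources used here. All 463240 deposited FPKM values equalled the count divided by the gene's length and the library's total count, within 0.0051. Gene positions are those of the deposited table.

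Counts were tested with edgeR 4.0.16 in R 4.3.3 (quasi-likelihood test, TMM scaling, filterByExpr, Benjamini-Hochberg adjustment over all genes tested, threshold 0.05), on the 4 EnzaR libraries for siYAP1 against siNC and on all 8 in 6 groups for EnzaR siNC against LNCaP control, so that CPM of 1 library differ slightly between comparisons. LNCaP ratios used a prior count of 2, a floor of a mean of 5 CPM and 1.2-fold as the size called. Alternatives were DESeq2 1.42.0, limma 3.58.1 voom, other scalings, filters and samples, each replicate left out, a replicate block and a GC and length surface per library (mgcv 1.9.3). The code was tested on simulated data. GC content is that of each gene's longest GENCODE transcript, found by gene ID for 97.3% of the genes tested after siYAP1 and 96.9% of those tested between the lines. Of the 57905 gene IDs, 51996 matched a symbol.

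Total counts of 16682669 to 18248939 limit precision for genes near 3 counts. The genes described and the list of 34 others were chosen with earlier results of these data known. All genes of the set are named, with YAP1, and of the 34 others those called after siYAP1 and the 4 with the largest absolute value in each other comparison. Promoters came from the RefSeq table, and ACAT2, ABCG1, SQLE and FDFT1 are named without one.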

Additional observations from a re-analysis of the deposited data

How the results depend on the processing

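In siYAP1 against siNC, single genes of the set stayed called in the same direction or stayed uncalled in 393 of 430 values over the alternatives. They lost a call in 27, gained one in 10 and changed sign while called in 0. The 393 include uncalled genes whose sign turned, such as GGPS1 (-0.161, and 0.076 with the GC and length correction). The count of genes of the set called higher (2) was 1 with limma-voom, with library totals alone, with a mean of at least 5 CPM, with the replicate block, and with the GC and length correction with or without the block. The count called lower (4) was 7 with library totals alone and 1 with the correction, with or without the block. Library totals alone moved the median of all genes by -0.10 (log2), so calls there are relative to that shift. Over all genes (872 higher and 930 lower), 457 were lower with DESeq2, 293 higher and 1416 lower with library totals alone, 564 higher with the replicate block, 400 higher and 274 lower with the GC and length correction, and 406 and 336 with the correction and the block. The median log2 fold change of the set was 0.0115 with the correction, 0.0166 with correction and block, and it ran from -0.137 (without siNC replicate 2) to 0.00606 (without siNC replicate 1) with 1 replicate left out. With each replicate left out in turn, 0 to 3 genes of the set were higher and 0 to 4 lower, and over all genes 15 to 940 were higher and 11 to 829 lower, the lowest without siYAP1 replicate 1. Same-numbered siYAP1 and siNC libraries did not deviate together (correlation -0.08 across 14948 genes). With 2 libraries per group, 1 such value cannot tell whether same-numbered libraries shared a culture or batch. In EnzaR siNC against LNCaP control, genes stayed called in the same direction or stayed uncalled in 195 of 217 values. These include a turned sign in the uncalled FDFT1 (-0.193, and up to 0.038). With the sign kept, a call was lost in 15 and gained in 2. In 5 further values, all with the GC and length correction, the sign and the call both changed. MVD (0.47), LSS (0.37) and HSD17B7 (-0.63) gained a call there, and MSMO1 (-0.15) and INSIG2 (-0.15) lost theirs. At 2-fold, 6 genes of the set were then higher and 4 lower, and the share of all genes at 2-fold was not counted with the correction. For EV-siNC against control, 0 genes of the set were higher and 0 lower at 1.5-fold, 8 and 2 were past 1.2-fold with library totals alone, and 0 were higher with the correction, where STARD4 was at -0.0905. For EV-siYAP1 against EV-siNC, 0 and 0 passed 1.5-fold, and 1 was higher with a floor of 10 CPM. For EV-siCII against EV-siNC, 1 was higher with the correction, and all 3 EV libraries lay above the control for 4 genes with it. The cause of these changes was not tested. Depth limits STARD4 and ABCA1, the lowest genes of the set, and the single LNCaP libraries carry no replicate spread.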
